A study of Mus musculus with 12 samples.

Results

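The response to loss of Srf was compared between 2 ages in mouse cardiomyocytes (CMs), the muscle cells whose contraction drives the heartbeat. The quantity described is the neonatal minus the adult knockout effect, that is (P14 KO - P14 CTRL) - (P90 KO - P90 CTRL) on the log2 scale, and it uses all 12 samples of the series, 3 in each of 4 groups. Knockout (KO) animals carried 2 floxed copies of Srf (Srf-flox/flox) and control (CTRL) animals carried 1 (Srf-flox/+), and every animal, controls included, received AAV9-cTNT-Cre, an adeno-associated virus whose cardiac troponin T promoter limits Cre to CMs. The neonatal groups were injected at postnatal day (P) 1 and collected at P14, and the adult groups were injected at P60 and collected at P90. All animals also carried a fluorescent reporter allele that Cre switches on, and the marked CMs were sorted by flow cytometry. The virus was given at a low dose that reaches a minority of CMs, so the profiled cells came from hearts in which most CMs kept Srf, and the CTRL cells were heterozygous rather than wild type. Age at collection cannot be told apart from age at injection, from the time between injection and collection, or from any difference in handling between the stages. Replicates in the study of these sorted cells were separate hearts, and the p-values measure the spread between them.

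SRF is a transcription factor that binds the CArG box, a short AT-rich motif, in the promoters and enhancers of genes for actins, other contractile proteins and immediate early responses. Its partners come from the myocardin family, which follow the state of actin, and from the ternary complex factors, which follow growth factor signalling through ERK. In the first weeks after birth, CMs replace fetal sarcomere isoforms, build T-tubules and mitochondria and turn from glucose to fatty acids as fuel.

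Counts were available for 23337 genes, of which 12841 passed a filter on low counts. Levels are given in CPM, counts scaled to library size with TMM factors, and they compare samples for a gene but not genes with each other. Total counts per sample lay between 9740389 and 23103460, so that a floor of 3 counts corresponded to between 0.138 and 0.326 CPM. Y-linked genes were counted in 1 library each of P14 CTRL, P14 KO and P90 CTRL and in none of P90 KO. The summed level of 7 CM markers, in which Myh6 dominates, was 84950.0 to 95220.0 CPM in P14 CTRL and 62360.0 to 69530.0 CPM in P14 KO. At P90 the sum was 84860.0 to 91550.0 CPM in CTRL and 71960.0 to 75110.0 CPM in KO. The cells thus carried CM transcripts in every group, and the sum was lower in KO at both stages. Single markers did not all move with the sum. Every KO sample lay below every CTRL sample of its stage for Myh6 and above for Actn2. Markers of fibroblasts summed to between 51.7 and 349 CPM and those of endothelial cells to between 154 and 336 CPM, with KO and CTRL overlapping at both stages. Leukocyte, erythroid, glial and epicardial markers each summed to at most 12.9 CPM in any sample, and adipocyte markers to at most 0.712 CPM. In bulk RNA of this kind, fewer cells of a type and less RNA per cell cannot be told apart.

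The targeted gene had nearly the same fold change at both ages. Srf was at 64.0, 57.1 and 49.4 CPM in P14 CTRL and 32.1, 27.5 and 9.75 CPM in P14 KO. The adult values were 71.2, 59.1 and 81.1 CPM in P90 CTRL and 32.9, 28.9 and 28.1 CPM in P90 KO. The KO samples lay below every CTRL sample of their stage, and P14 KO replicate 3 lay below all the others. Its log2 fold change was -1.30 at P14 (adjusted p = 0.00999) and -1.24 at P90 (adjusted p = 0.18), and the difference of -0.063 ± 0.42 (SE) did not pass the test (adjusted p = 0.958, edgeR). Genes are called below at an adjusted p under 0.05.

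A stage-dependent response was called for 228 genes, 1.78% of those tested. The neonatal effect was lower than the adult effect for 123 of them (0.958% of the genes tested) and higher for 105 (0.818%). In the same fit the neonatal effect alone was called lower for 1163 genes (9.06%) and higher for 925 (7.2%), while the adult effect was called for 3 genes (0.0234%), which were Itgb1bp3, Tob2 and Slc8a1. Most of the 228 genes were also called at P14 in the direction of the difference: 119 of the 123 fell and 97 of the 105 rose. The adult effect was under 0.3 in size on the log2 scale for 88.6% of the 123 genes and 63.8% of the 105. The share over all genes tested was 72.8%. At P90, KO and CTRL did not overlap for 28.5% of the 123 genes, 36.2% of the 105 and 20.7% of all genes tested. The median log2 fold change of the 123 genes was -0.76 at P14 and 0.052 at P90, and that of the 105 genes was 1.08 at P14 and 0.0071 at P90. Over all genes tested the median difference was -0.0051, with its middle 50% between -0.29 and 0.28. The adult effect was the larger in size for 12 of the 228 genes, and 19 genes had fold changes of opposite sign that were each over 0.3 in size on the log2 scale.

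**Figure D1:**
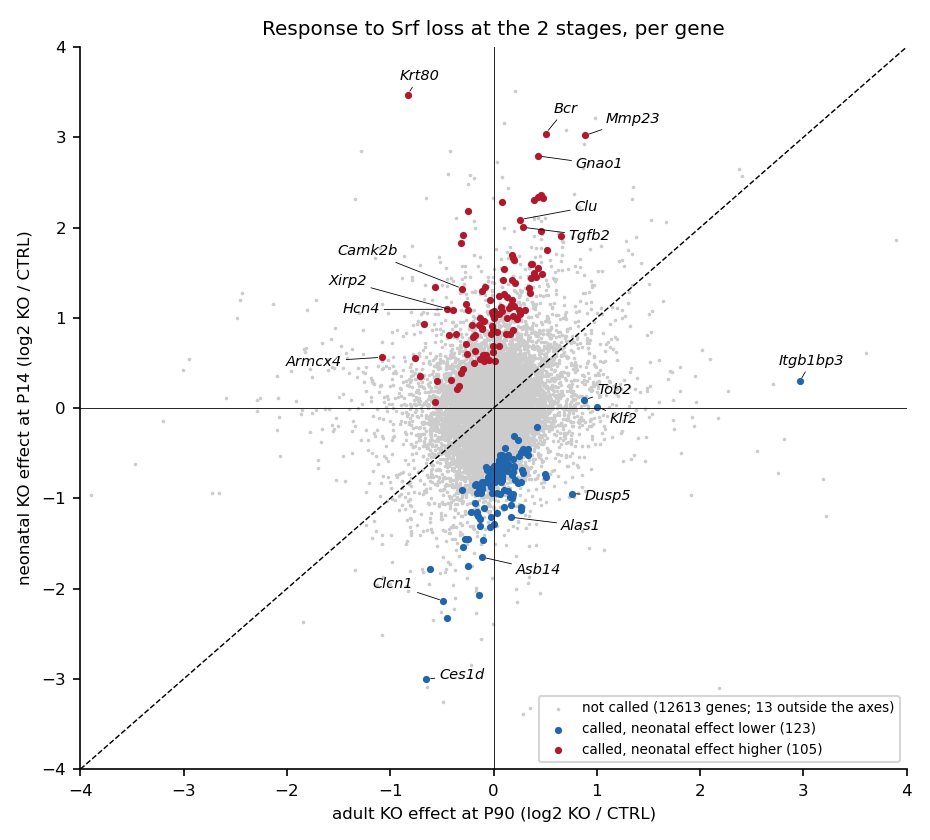
Neonatal KO effect at P14 (vertical axis, log2 KO over CTRL) against the adult KO effect at P90 (horizontal axis) for each gene tested; grey, not called in the difference between stages; blue, the 123 genes with the lower neonatal effect; red, the 105 with the higher; dashed line, equal effects. The called genes spread mainly along the vertical axis, and Itgb1bp3 stands far to the right of the others.

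The number of calls depended strongly on single libraries. With 1 library left out it lay between 4 and 377. It rose to 377 without P14 CTRL replicate 1 and to 349 without P14 CTRL replicate 3, and it fell to between 44 and 137 without any other P14 library. Without a P90 CTRL library it was 75, 42 or 5, in the order of replicates 1 to 3. Without P90 KO replicate 1 it was 17, without replicate 2 it was 4, and without replicate 3 it was 278. Called with each of the 12 libraries left out were 4 genes, Asb14, Tgfb2, Bcr and Krt80, of which the last 2 were named after their values were seen because they lie below the 5 CPM limit of the naming rule at P90. Leaving out the 3 libraries with Y-linked counts left 15 calls, and the part that sex takes in the result was not tested further. At an unadjusted p under 0.05 there were 2440 genes (19.0% of those tested) with all libraries, and between 1840 and 2838 with 1 library left out.

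**Figure D2:**
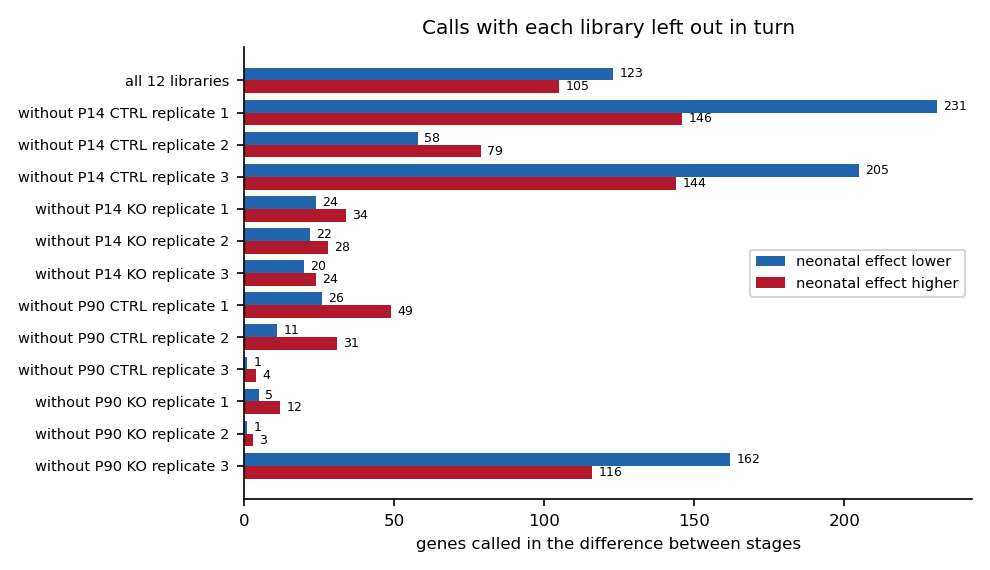
Number of genes called in the difference between stages (horizontal axis) with all 12 libraries and with each library left out; blue, neonatal effect lower; red, neonatal effect higher. Without P90 CTRL replicate 3 or P90 KO replicate 2, no more than 5 calls were left.

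The difference between stages also moved with gene length. With the tested genes put in order of exon length and cut into 10 groups of like size, the median difference was -0.40 in the group with the shortest exons (median 889 bp in total) and 0.33 in that with the longest (median 7839.5 bp), and it climbed from each group to the next. The effect at each stage contributed: the correlation with log2 exon length across 12841 genes was 0.15 for the neonatal effect, -0.27 for the adult effect and 0.32 for the difference, given as a description because genes are not independent replicates. The 123 genes had a median exon length of 1635 bp, the 105 genes 4148 bp, and all genes tested 2928 bp. After each library's trend with exon length had been removed, 148 genes were called (1.15%), 129 of them among the 228. Values after this correction are given beside many of the gene groups below, and the part of gene length in the result was not tested further.

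**Figure D3:**
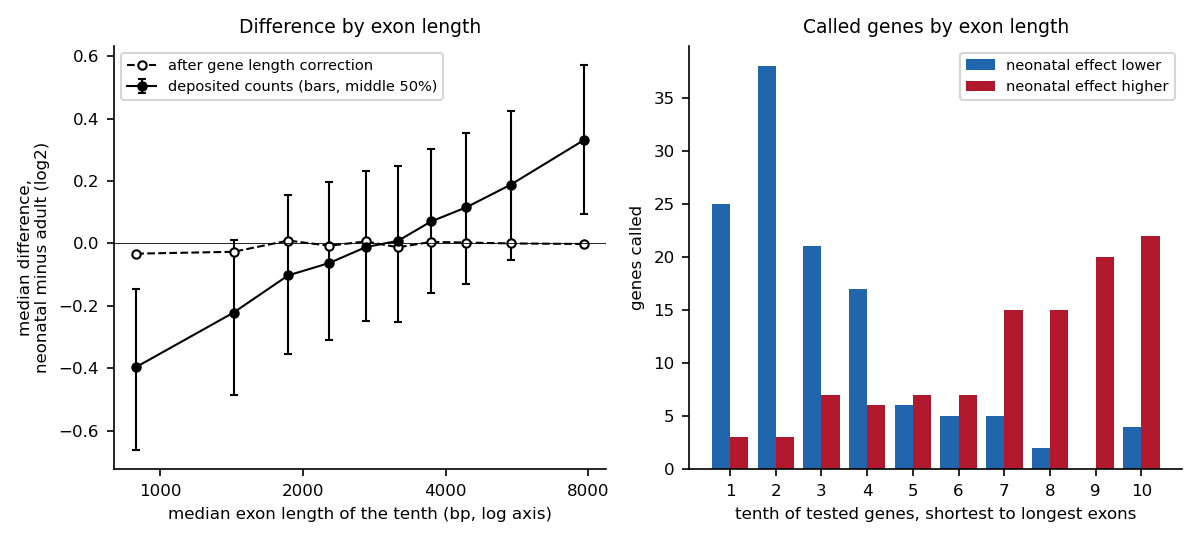
Left, median difference between stages (log2) in 10 groups of the tested genes ordered by exon length (log axis), with the middle 50% as bars, and the same after gene length correction (open points). Right, number of called genes in each group. Calls with the lower neonatal effect sit mainly in the 4 groups with the shortest exons, and those with the higher effect in the 4 with the longest.

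Among genes that fell at P14 and were not called in the adult, the muscle gene Asb14 gave the smallest p of all genes tested. Its product carries ankyrin repeats and a SOCS box, the part by which such proteins join ubiquitin ligases. Asb14 was at 90.3, 86.5 and 95.4 CPM in P14 CTRL and 34.9, 25.7 and 25.97 CPM in P14 KO. In the adult it was at 165, 177 and 163 CPM in P90 CTRL and 156, 159 and 153 CPM in P90 KO. The P14 KO samples lay far below the P14 CTRL samples, whereas at P90 the KO samples lay just under the CTRL samples. For Asb14 the log2 fold change was -1.65 at P14 and -0.11 at P90, and the difference was -1.54 ± 0.16 (SE; adjusted p = 0.00251, edgeR), called in 12 of 12 leave-one-out fits.

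The same group held lipid and heme enzymes. Ces1d, a carboxylesterase that hydrolyses stored lipid esters, was at 15.03, 27.7 and 16.7 CPM in P14 CTRL and 3.56, 2.30 and 1.57 CPM in P14 KO. In the adult it was far more abundant, at 292, 312 and 220.1 CPM in P90 CTRL and 166, 182 and 177 CPM in P90 KO. KO lay below CTRL at both stages, but the fold was larger at P14: the log2 fold change was -3.004 at P14 and -0.65 at P90, and the difference was -2.35 ± 0.36 (SE; adjusted p = 0.0156, edgeR), called in 10 of 12 leave-one-out fits. Dgat2, which makes triglyceride from diacylglycerol, was at 556, 737 and 501 CPM in P14 CTRL and 260.5, 246 and 211 CPM in P14 KO. At P90 the groups overlapped, at 916, 830.2 and 751 CPM in P90 CTRL and 863, 815 and 755 CPM in P90 KO. For Dgat2 the log2 fold change was -1.32 at P14 and -0.038 at P90, and the difference was -1.28 ± 0.20 (SE; adjusted p = 0.0184, edgeR), called in 9 of 12 leave-one-out fits. Alas1, the rate-limiting enzyme of heme synthesis in most tissues, was at 469, 589 and 583 CPM in P14 CTRL and 247, 273 and 189 CPM in P14 KO. In the adult, Alas1 was at 464, 525 and 560.0 CPM in P90 CTRL and 655, 559.6 and 525 CPM in P90 KO, again with overlap. For Alas1 the log2 fold change was -1.21 at P14 and 0.17 at P90, and the difference was -1.38 ± 0.21 (SE; adjusted p = 0.0156, edgeR), called in 10 of 12 leave-one-out fits. With gene length correction the differences of these genes were -2.26 for Ces1d, -1.22 for Dgat2 and -1.35 for Alas1, all still called.

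Further genes were among the 10 lowest differences. Clcn1, the muscle chloride channel gene, was at 6.76, 6.35 and 5.44 CPM in P14 CTRL and 2.02, 1.20 and 1.01 CPM in P14 KO. The P90 values were 17.1, 16.8 and 19.3 CPM in P90 CTRL and 13.8, 14.1 and 10.0 CPM in P90 KO, so that KO lay below CTRL at each stage, and its difference was -1.65 (-2.14 at P14, -0.48 at P90). Rxrg, the gamma retinoid X receptor, was at 85.8, 122 and 91.1 CPM in P14 CTRL and 41.6, 41.4 and 25.3 CPM in P14 KO. Adult levels overlapped at 159, 160.2 and 154 CPM in P90 CTRL and 172, 143 and 126 CPM in P90 KO, and the difference was -1.36 (-1.46 at P14, -0.10 at P90). The RNA-binding protein gene Ybx2 and the LIM protein gene Csrp2 had differences of -1.40 (-1.13 at P14, 0.27 at P90) and -1.37 (-1.10 at P14, 0.27 at P90). With gene length correction the adjusted p of Csrp2 was 0.0571, and the other 3 genes were still called (edgeR).

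**Figure D4:**
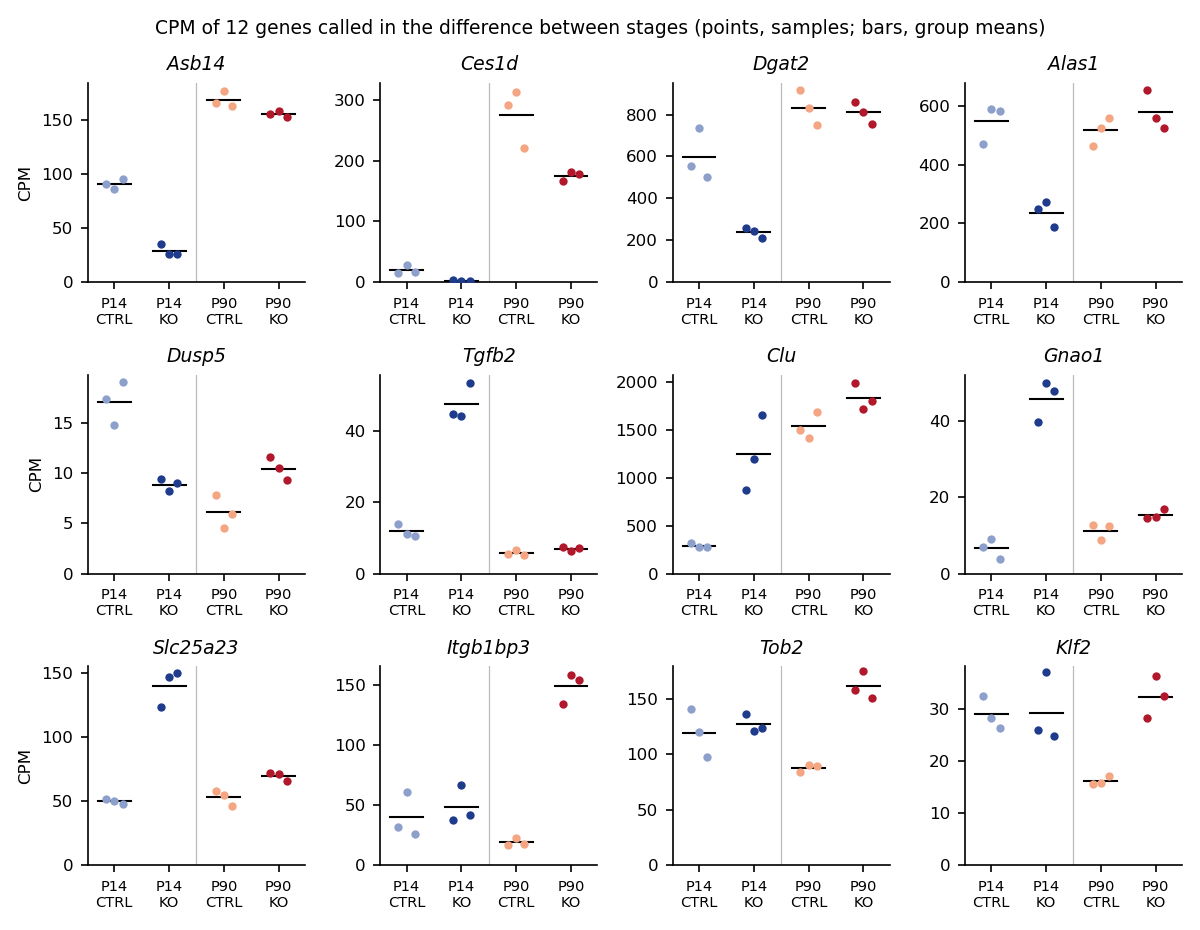
CPM (vertical axes, from 0) of 12 called genes in each sample, by group; points are samples and bars are group means of 3 samples. In the upper row and for Dusp5, P14 KO lies below P14 CTRL, and for Tgfb2, Clu, Gnao1 and Slc25a23 it lies above. Of the 12 genes, Itgb1bp3, Tob2 and Klf2 separate KO from CTRL at P90 and not at P14.

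Genes of mitochondrial energy metabolism were among the calls with the lower neonatal effect. The gene lists here and below were chosen with earlier results of these data known, so their counts and shares describe and do not test. Oxidative phosphorylation, the nuclear genes of the respiratory chain and ATP synthase, had 81 tested members, and the difference was negative for all 81. Of these, 8 were called, all with the lower neonatal effect, which is 9.88% against 0.958% of all genes tested. Here and below, a list whose calls all have the same direction is set against the share of all genes called in that direction. The share called in either direction was 1.78%. The median log2 fold change of the list was -0.65 at P14 and 0.15 at P90, and the median difference was -0.77. Its exons are short (median 679 bp). With gene length correction the median difference was -0.40 and none of the 8 called members passed the test, while 1 other member did. Negative differences were common among short genes of any kind. In the group of tested genes with the shortest exons (median 889 bp), the uncorrected median difference was -0.40 and the upper quartile -0.145. Whether the signs of the list go beyond those of other genes of like length was not tested. The number of list members called was 1 with inferred sex as a covariate, 0 without the 3 libraries with Y-linked counts and 49 with DESeq2. The called members included Ndufa9, Ndufa10, Ndufb4 and Ndufv1 of complex I, Sdhb of complex II, Uqcrc2 of complex III and Atp5c1 of the ATP synthase. Sdhb, the iron-sulfur subunit of succinate dehydrogenase, was at 1332, 1698 and 1454 CPM in P14 CTRL and 912, 834 and 762 CPM in P14 KO. Adult levels were 2147, 1946 and 2122 CPM in P90 CTRL and 2273, 2002 and 1824 CPM in P90 KO. The P14 groups did not overlap and the P90 groups did, with a difference of -0.81 (-0.84 at P14, -0.027 at P90) and an adjusted p of 0.0351 (edgeR).

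The tricarboxylic acid cycle and pyruvate entry list had 32 tested members, of which 31 had a negative difference and 9 were called, all lower, which is 28.1% against 0.958% of all genes tested. These covered pyruvate import and oxidation (Brp44, Pdha1 and Dld), the cycle itself (Idh3b, Sucla2, Suclg1, Fh1 and Mdh2) and Got2 of the malate-aspartate shuttle. Dld, the dihydrolipoyl dehydrogenase shared by the pyruvate and 2-oxoglutarate dehydrogenase complexes, was at 585, 858 and 632 CPM in P14 CTRL and 341, 317 and 306 CPM in P14 KO. Its adult values were narrow, at 688, 712 and 705 CPM in P90 CTRL and 639.7, 661 and 670.1 CPM in P90 KO. P14 KO thus lay well below every other group and P90 KO just below P90 CTRL. For Dld the log2 fold change was -1.11 at P14 and -0.094 at P90, and the difference was -1.01 ± 0.18 (SE; adjusted p = 0.021, edgeR), called in 7 of 12 leave-one-out fits. The other called members of the list were called in fewer of these fits, from 1 (Pdha1) to 5 (Got2 and Sucla2). The list's median difference was -0.62 (-0.65 at P14, -0.051 at P90). After gene length correction it was -0.49 with 6 members called, all among the 9. Calls in the list numbered 4 with inferred sex as a covariate, 0 without the 3 libraries with Y-linked counts and 24 with DESeq2.

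Fatty acid uptake and oxidation had 42 tested members and 8 calls, all lower, which is 19% against 0.958% of all genes tested. Apart from Ces1d and Dgat2, they were Acadvl and Acadm, which start the oxidation of very long and medium chains, Echs1 and Hadhb, which carry it on, and Etfa and Etfb, which pass its electrons on. Acadvl was at 2212, 2531 and 2501 CPM in P14 CTRL and 1632, 1487 and 1301 CPM in P14 KO. Adult Acadvl was at 2489, 2271 and 2230.3 CPM in P90 CTRL and 2395, 2611 and 2374 CPM in P90 KO, with KO and CTRL overlapping. The differences of these 6 genes lay between -0.83 for Etfb and -0.77 for Etfa. The list's median difference was -0.58, and -0.45 after gene length correction, when 7 members were called, 6 of the 8 and 1 other. Acadm and Etfb were no longer called. The calls came to 6 with inferred sex as a covariate, 1 without the 3 libraries with Y-linked counts and 22 with DESeq2. Branched-chain amino acid and ketone body metabolism had 2 calls among 24 members, which is 8.33% against 0.958% of all genes tested. The list's calls were Hibadh of valine breakdown (-0.74) and Pcca, a subunit of propionyl-CoA carboxylase (-0.57). Its median difference was -0.46, and -0.42 with length correction.

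Lists of genes that build mitochondria had median differences of the same sign. The difference was negative for all 80 members of the mitochondrial ribosome (median exon length 1054 bp), the complex that translates mitochondrial mRNAs. Of these, 7 were called lower, which is 8.75% against 0.958% of all genes tested: Mrpl1, Mrpl9, Mrpl30, Mrpl42, Mrpl45, Mrps15 and Mrps27. Mrpl1 was at 53.0, 72.8 and 62.7 CPM in P14 CTRL and 34.6, 38.9 and 35.1 CPM in P14 KO. At P90 it was at 61.7, 61.7 and 66.4 CPM in P90 CTRL and 65.6, 67.2 and 68.2 CPM in P90 KO, and the difference was -0.88 (-0.79 at P14, 0.082 at P90). The median difference of the list was -0.62 (-0.36 with 2 calls after length correction). The calls numbered 1 with inferred sex as a covariate, 0 without the 3 libraries with Y-linked counts and 41 with DESeq2. The median exon length of the list lies within the group of tested genes with the shortest exons, in which most differences were negative. Mitochondrial biogenesis and dynamics had 3 members called lower, Rxrg, the import pore subunit Timm23 (-0.80) and the chaperonin Hspd1 (-0.77), and 1 called higher, the orphan nuclear receptor Esrrg (0.70, with 0.39 at P14 and -0.31 at P90). Calls made up 10.3% of this list against 1.78% of all genes tested. The list's median difference was -0.26, the same to the second decimal after length correction and -0.16 without P14 CTRL replicate 2. Timm23 and Esrrg were no longer called after length correction (adjusted p = 0.0626 and 0.068, edgeR), while 2 other members were. Creatine and high-energy phosphate had 1 call among 16 members (6.25% against 0.958% of all genes tested), the outer membrane channel Vdac2 (-0.65). Its median difference was -0.53, and -0.36 after length correction. Vdac2 was then no longer called (adjusted p = 0.053, edgeR), while 1 other member was. NAD metabolism had 3 calls among 13 members, all lower, which is 23.1% against 0.958% of all genes tested. These were Nmnat3, which makes NAD in mitochondria (-0.85, with -0.87 at P14 and -0.027 at P90), the mitochondrial deacylase Sirt5 (-0.76, with -0.62 at P14 and 0.14 at P90) and Itgb1bp3, which is described with the adult responses below. The NAD list's median difference was -0.51, and -0.40 after length correction. Sirt5 was then no longer called (adjusted p = 0.0701, edgeR), while 1 other member was.

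A further set of lists was drawn up after the called genes themselves had been seen. Their counts, like those of the lists above, describe and do not test. Over all genes tested, 0.958% were called lower and 0.818% higher. Coenzyme Q synthesis had 4 of 13 members called lower (30.8%), Pdss1, Coq5, Coq9 and Coq10a, with a median difference of -0.63 (-0.48 with 1 call after length correction). Mitochondrial protein import and prohibitins had 6 of 34 called lower (17.6%), the prohibitins Phb and Phb2 with Hspd1, Grpel1, Timm23 and Samm50, and a median of -0.55. After length correction that median was -0.35, with 4 members called. Heme synthesis and iron-sulfur clusters had 2 members called lower, Alas1 among them, of 15 (13.3%). The median difference was -0.36, and -0.23 with 1 call after length correction. The sterol list went the other way, with 2 of 18 members called higher (11.1%) and a median of 0.16 (0.28 with 1 call after length correction). Among them was Insig1, which holds back sterol synthesis (1.07, with 1.08 at P14 and 0.0068 at P90).

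The cytosolic ribosome list and the list of glycolysis and glycogen had no call. All but 2 of 81 cytosolic ribosome genes had a negative difference, with a median of -0.59. This came mostly from the adult side, where the median log2 fold change was 0.38 against -0.17 at P14. Their median exon length was 725 bp, and after length correction the median difference was -0.20. Without P14 CTRL replicate 2 it was -0.34, uncorrected. Rplp0, a stalk protein of the large subunit, gave -0.53 (adjusted p = 0.142) and Rpl4 gave -0.48 (adjusted p = 0.0793), and counts of such genes are uncertain because pseudogene copies can take their reads. Glycolysis and glycogen had a median difference of -0.28 (-0.16 without P14 CTRL replicate 2), and its most abundant members, Aldoa and Eno3, gave -0.46 and -0.75 (adjusted p = 0.111 and 0.0676, edgeR).

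**Figure D5:**
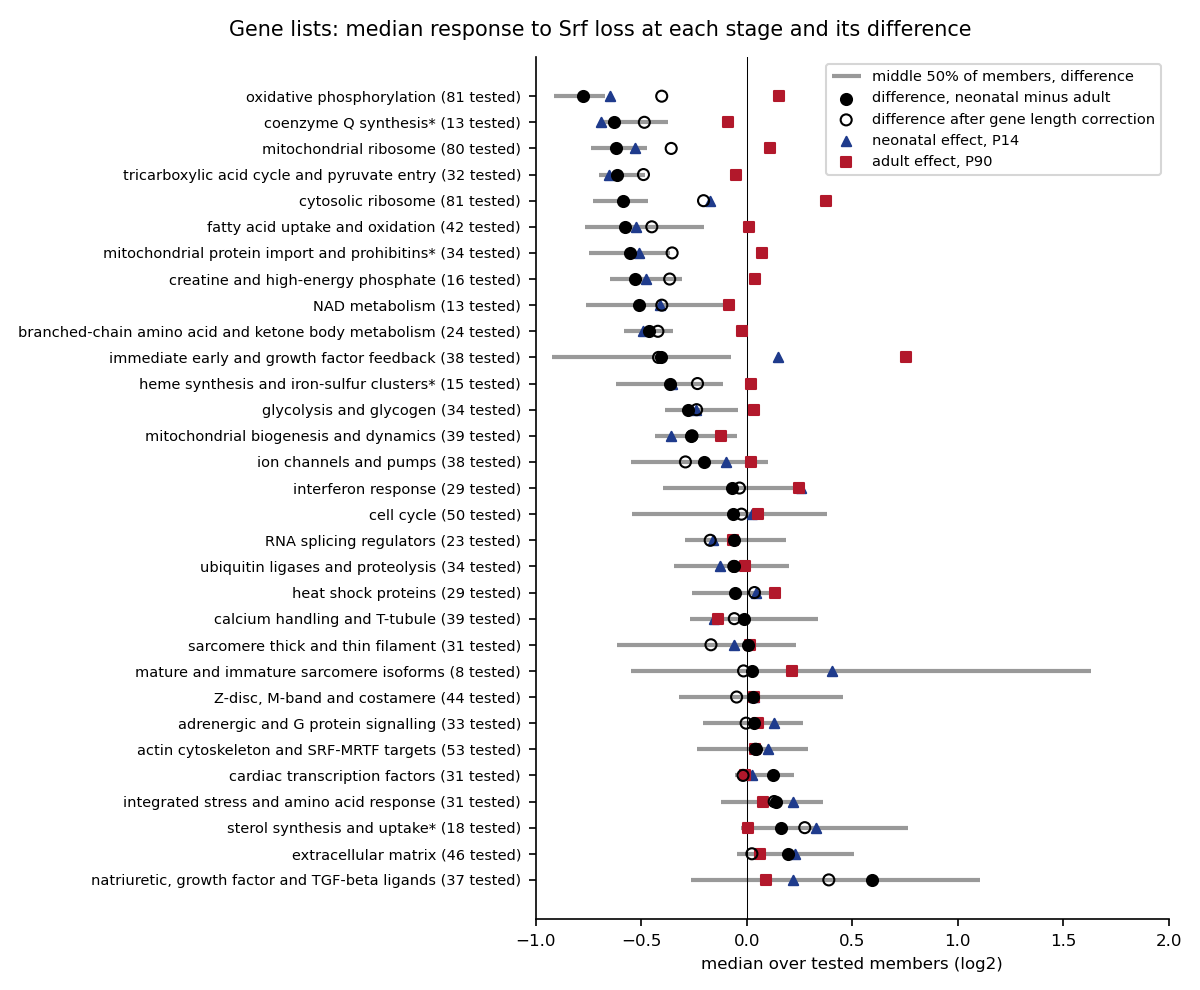
Median over the tested members of each gene list (log2, horizontal axis): filled circle, difference between stages, with the middle 50% of members as a bar; open circle, the same after gene length correction; triangle, neonatal effect; square, adult effect; an asterisk marks lists drawn up after the called genes had been seen. Mitochondrial lists have a clearly negative neonatal median and an adult median near 0.

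Genes that rose at P14 and were not called in the adult included secreted and surface proteins. Tgfb2, a transforming growth factor beta ligand, was at 13.8, 11.1 and 10.5 CPM in P14 CTRL and 44.7, 44.0 and 53.3 CPM in P14 KO. The adult values were 5.36, 6.63 and 5.22 CPM in P90 CTRL and 7.48, 6.23 and 7.14 CPM in P90 KO. The P14 KO samples stood clear of all other samples. For Tgfb2 the log2 fold change was 2.003 at P14 and 0.28 at P90, and the difference was 1.72 ± 0.22 (SE; adjusted p = 0.00915, edgeR), called in 12 of 12 leave-one-out fits. Clu, the secreted chaperone clusterin, was at 323, 274 and 279 CPM in P14 CTRL and 876, 1197 and 1655 CPM in P14 KO. Adult levels were high in every sample, at 1498, 1417 and 1687 CPM in P90 CTRL and 1990.1, 1714 and 1802 CPM in P90 KO, and the P14 KO samples lay between P14 CTRL and those levels or within them, while P90 KO lay just above P90 CTRL. For Clu the log2 fold change was 2.09 at P14 and 0.26 at P90, and the difference was 1.83 ± 0.25 (SE; adjusted p = 0.0127, edgeR), called in 10 of 12 leave-one-out fits. Cd44, the hyaluronan receptor, was at 24.7, 17.2 and 18.4 CPM in P14 CTRL and 88.8, 93.7 and 121 CPM in P14 KO. Adult Cd44 was at 7.07, 12.4 and 10.4 CPM in P90 CTRL and 9.36, 13.6 and 18.2 CPM in P90 KO, with overlap, and its difference was 1.85 (2.33 at P14, 0.48 at P90).

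Further genes were among the 10 highest differences. Gnao1, the alpha subunit of the G protein Go, was at 6.996, 8.95 and 3.74 CPM in P14 CTRL and 39.8, 49.8 and 47.8 CPM in P14 KO. In the adult it was at 12.6, 8.70 and 12.5 CPM in P90 CTRL and 14.4, 14.8 and 16.8 CPM in P90 KO. KO lay above CTRL at both stages, by more at P14: the log2 fold change was 2.79 at P14 and 0.43 at P90, and the difference was 2.36 ± 0.34 (SE; adjusted p = 0.0154, edgeR), called in 10 of 12 leave-one-out fits. Ptk2b, a focal adhesion kinase that calcium activates, was at 4.79, 2.80 and 3.10 CPM in P14 CTRL and 10.6, 11.8 and 18.1 CPM in P14 KO. Its adult values overlapped at 12.3, 9.67 and 11.6 CPM in P90 CTRL and 11.9, 7.33 and 8.25 CPM in P90 KO, and the difference was 2.21 (1.91 at P14, -0.30 at P90). Klhl34, a kelch-repeat protein gene, was at 2.49, 3.05 and 3.22 CPM in P14 CTRL and 15.4, 16.9 and 10.2 CPM in P14 KO. It was at 13.7, 18.8 and 28.4 CPM in P90 CTRL and 17.5, 19.0 and 27.8 CPM in P90 KO, so that the P14 KO samples reached the lower part of the adult range. Its difference was 2.20 (2.28 at P14, 0.079 at P90). Hspa1l, of the Hsp70 chaperones, had a difference of 1.91 (2.31 at P14, 0.39 at P90), and its counts are uncertain because near-identical Hsp70 genes can share its reads. The transcriptional repressor gene Atxn1l gave 1.60 (0.93 at P14, -0.67 at P90), on levels of at most 12.3 CPM.

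Bcr and Krt80, the low-level genes that were called with each library left out, both had higher P14 KO samples. Bcr, which encodes a regulator of small GTPases, was at 2.16, 1.75 and 1.35 CPM in P14 CTRL and 13.0, 15.7 and 15.01 CPM in P14 KO. The P90 values were 3.40, 2.17 and 2.69 CPM in P90 CTRL and 4.90, 3.23 and 3.89 CPM in P90 KO, where KO and CTRL overlapped, and the difference was 2.54 ± 0.33 (SE). The keratin gene Krt80 was at 0.986, 0.600 and 0.293 CPM in P14 CTRL and 6.76, 5.84 and 8.89 CPM in P14 KO. In the adult the order turned, at 1.60, 1.63 and 2.61 CPM in P90 CTRL and 1.01, 0.830 and 1.51 CPM in P90 KO, and the difference was 4.30 ± 0.54 (SE) on levels of at most 8.89 CPM.

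Structural genes of the sarcomere differed in both directions. Z-disc, M-band and costamere had 44 tested members and 4 calls, all with the higher neonatal effect, which is 9.09% against 0.818% of all genes tested. Its median difference was 0.030, which turned to -0.048 with 3 calls after length correction and changed sign in 5 of 16 other settings (another test, size factors, the replicate block, length correction, and each library left out). Sorbs2, an adaptor of the Z-disc, was at 461, 498 and 407 CPM in P14 CTRL and 1021, 851 and 1095 CPM in P14 KO. At P90 the groups overlapped, at 509, 567 and 519 CPM in P90 CTRL and 537, 569 and 569 CPM in P90 KO. For Sorbs2 the log2 fold change was 1.12 at P14 and 0.072 at P90, and the difference was 1.05 ± 0.16 (SE; adjusted p = 0.0156, edgeR), called in 10 of 12 leave-one-out fits. Xirp2, which binds actin at the intercalated disc, was at 140.4, 118 and 154 CPM in P14 CTRL and 325, 228 and 321 CPM in P14 KO. In the adult KO lay lower than CTRL except for 1 overlapping sample, at 226, 247 and 306 CPM in P90 CTRL and 164, 190.3 and 240.4 CPM in P90 KO, and the difference was 1.47 (1.08 at P14, -0.39 at P90). Flnc, the muscle filamin, moved likewise with 1.24 (0.81 at P14, -0.43 at P90), and its adjusted p was 0.053 after length correction. The fourth was Ankrd23, a titin-associated ankyrin protein, at 0.93 (1.13 at P14, 0.20 at P90). Sorbs2 shares 168 exonic bases with a neighbouring transcript of much lower counts.

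In the sarcomere thick and thin filament list, 3 of 31 members were called, which is 9.68% against 1.78% of all genes tested. Mybpc2, the fast skeletal myosin-binding protein C, was at 45.8, 27.3 and 47.1 CPM in P14 CTRL and 154, 139 and 174 CPM in P14 KO. Adult Mybpc2 was at 38.5, 32.9 and 40.4 CPM in P90 CTRL and 46.4, 50.1 and 57.5 CPM in P90 KO. KO lay above CTRL at both stages and by more at P14, with a difference of 1.502 (1.96 at P14, 0.46 at P90). Myh10, nonmuscle myosin heavy chain IIB, gave 1.12 (0.99 at P14, -0.13 at P90). Tmod4, which caps the pointed ends of thin filaments, gave -1.10 (-1.23 at P14, -0.13 at P90) and had an adjusted p of 0.0717 after length correction. The list's median of 0.0047 changed sign in 13 of 16 other settings. Of the 8 mature and immature isoforms, Tnni3, the adult cardiac troponin I, was the single call (12.5% against 0.958% of all genes tested). Tnni3 was at 4963, 6956 and 5971 CPM in P14 CTRL and 3918, 4442 and 4093 CPM in P14 KO. Its adult values were 6861, 5712 and 7050.2 CPM in P90 CTRL and 8878, 8373 and 7427 CPM in P90 KO, so that KO lay below CTRL at P14 and above it at P90. The difference was -0.85 (-0.52 at P14, 0.33 at P90), called in 2 of 12 leave-one-out fits, and its adjusted p of 0.0437 became 0.0952 after length correction (edgeR).

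The immature isoforms had no call, and those given here were picked after their values were seen. Tnni1, the fetal troponin I, was at 66.3, 30.9 and 84.9 CPM in P14 CTRL and 294, 315 and 589.8 CPM in P14 KO. It was at 0.206, 0.435 and 0.316 CPM in P90 CTRL and 0.0628, 0.323 and 0.555 CPM in P90 KO, under or near the counting floor in the adult, and its difference of 2.69 had an adjusted p of 0.3 (edgeR). Myl7, the atrial regulatory light chain, was at 1.41, 1.30 and 0.0585 CPM in P14 CTRL and 24.1, 8.95 and 0.0505 CPM in P14 KO. Adult levels were 14.5, 24.7 and 45.3 CPM in P90 CTRL and 64.0, 15.7 and 17.4 CPM in P90 KO. The groups overlapped at both stages for Myl7, and its difference of 3.30 had an adjusted p of 0.246. Bmp10, a ligand of the trabecular and atrial wall, reached 8.03 CPM in P14 KO replicate 1 and at most 1.09 CPM in any other sample, so its fitted difference rests on 1 library.

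Excitation genes held a small number of calls. Calcium handling and T-tubule had 2 calls among 39 members, both higher, which is 5.13% against 0.818% of all genes tested. Its median difference was -0.013, which changed sign in 3 of 16 settings. Cacna1g, a T-type calcium channel of the fetal heart and conduction system, was at 55.2, 45.0 and 51.4 CPM in P14 CTRL and 107, 137 and 159.7 CPM in P14 KO. Adult Cacna1g was at 22.8, 20 and 22.9 CPM in P90 CTRL and 23.1, 24.9 and 26.5 CPM in P90 KO. KO exceeded CTRL in every sample pair at both stages. For Cacna1g the log2 fold change was 1.41 at P14 and 0.18 at P90, and the difference was 1.24 ± 0.20 (SE; adjusted p = 0.021, edgeR), called in 9 of 12 leave-one-out fits. Cacna1c, the L-type channel that triggers contraction, was at 169, 153 and 177 CPM in P14 CTRL and 248, 231 and 275 CPM in P14 KO. Its adult values were 218, 208 and 222 CPM in P90 CTRL and 148, 179 and 215 CPM in P90 KO, which overlapped. The difference of Cacna1c was 0.85 (0.59 at P14, -0.26 at P90), called in 3 of 12 leave-one-out fits, and had an adjusted p of 0.0602 after length correction (edgeR). The list of ion channels and pumps had Clcn1 called lower and Hcn4, the pacemaker channel, called higher among 38 (5.26% against 1.78% of all genes tested). Clcn1 was called in 5 and Hcn4 in 6 of 12 leave-one-out fits. The list's median of -0.20 was -0.12 without P14 CTRL replicate 1 and -0.30 without P90 CTRL replicate 2. Hcn4 was at 10.7, 6.25 and 6.96 CPM in P14 CTRL and 17.2, 17.995 and 15.9 CPM in P14 KO. At P90 it was at 7.89, 7.72 and 10.6 CPM in P90 CTRL and 5.84, 6.83 and 6.43 CPM in P90 KO, below each CTRL sample, and its difference was 1.55 (1.09 at P14, -0.45 at P90).

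Genes of the SRF pathway itself held 1 call. Of 53 tested genes of the actin cytoskeleton and SRF-MRTF list, 1 was called, with the higher neonatal effect. This is 1.89%, against 1.78% of all genes called in either direction and 0.818% called higher. The median difference was 0.046, which changed sign in 2 of 16 settings. The called gene was Itga5, the fibronectin receptor subunit, at 180.1, 134 and 160.0 CPM in P14 CTRL and 309, 309.8 and 268 CPM in P14 KO. The adult values were 107, 80.4 and 116 CPM in P90 CTRL and 90.6, 97.6 and 113 CPM in P90 KO, with overlap, and its difference was 0.92 (0.90 at P14, -0.011 at P90), with an adjusted p of 0.059 after length correction. The next 3 genes were picked after their values were seen. Actg1, cytoplasmic gamma-actin, gave -1.40 at P14 and -0.72 at P90, and the smooth muscle myosin light chain Myl9 gave -1.65 and -0.49. Their differences did not pass the test (adjusted p = 0.292 and 0.356, edgeR), which does not show that the stages respond alike. The sodium-calcium exchanger gene Slc8a1 was the 1 gene called lower in the adult. It was at 232, 257 and 226 CPM in P14 CTRL and 193, 153 and 187 CPM in P14 KO. In the adult it was at 185, 211 and 205 CPM in P90 CTRL and 119.9, 114 and 121 CPM in P90 KO. KO lay below CTRL in both, with log2 fold changes of -0.42 and -0.76 and an adjusted p of 0.243 for the difference.

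Each call in the lists of ligands, extracellular matrix and G protein signalling had the higher neonatal effect. Natriuretic, growth factor and TGF-beta ligands had a median difference of 0.59, the highest of the lists, and 0.39 after length correction. Without P14 CTRL replicate 2 the median was 0.32, and without P14 KO replicate 2 it was 0.33. Its 2 calls among 37 members (5.41% against 0.818% of all genes tested) were Tgfb2 and Rcan1. The latter is an inhibitor of calcineurin that calcineurin itself induces, and it was placed in this list without being a ligand. Rcan1 was at 148, 169 and 189.7 CPM in P14 CTRL and 382, 417 and 472 CPM in P14 KO. Adult Rcan1 was at 173, 212 and 256 CPM in P90 CTRL and 227, 281 and 308 CPM in P90 KO, and its difference was 0.98 (1.33 at P14, 0.35 at P90). Extracellular matrix had 2 calls among 46, which is 4.35% against 0.818% of all genes tested. These were the basement membrane collagen Col4a5 (0.99, with 0.87 at P14 and -0.11 at P90) and the metalloproteinase Mmp23 (2.13, with 3.02 at P14 and 0.89 at P90). The list's median of 0.20 was 0.025 after length correction. That median rested on single libraries: it was 0.38 without P14 CTRL replicate 1, 0.038 without P14 CTRL replicate 2, 0.030 without P14 KO replicate 2, 0.083 without P90 CTRL replicate 2 and 0.047 without P90 KO replicate 1. Mmp23 was at 2.72, 2.25 and 2.93 CPM in P14 CTRL and 14.4, 24.5 and 25.3 CPM in P14 KO. Adult Mmp23 was at 2.01, 1.63 and 1.98 CPM in P90 CTRL and 3.20, 4.15 and 3.09 CPM in P90 KO, which shows KO above CTRL at both stages on low levels. Adrenergic and G protein signalling had Gnao1 as its 1 call among 33 (3.03%), and heat shock proteins had Hspa1l among 29 (3.45%). The share of all genes tested called higher was 0.818%.

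Cspg4, which marks pericytes and smooth muscle, was also called. It was at 65.5, 31.8 and 47.2 CPM in P14 CTRL and 115, 120.0 and 131 CPM in P14 KO. The P90 values were 22.1, 25.7 and 24.8 CPM in P90 CTRL and 17.0, 24.7 and 26.7 CPM in P90 KO, with overlap, and its difference was 1.42 (1.34 at P14, -0.080 at P90). It was the 1 called of 5 markers of those cells, whose summed level was 77.8 to 169 CPM in P14 CTRL and 191 to 203 CPM in P14 KO. In the adult that sum was 70.1 to 103 CPM in CTRL and 68.0 to 99.8 CPM in KO. The sum of the other 4 markers, which are Myh11, Rgs5, Pdgfrb and Kcnj8, was 46.0 to 104 CPM in P14 CTRL and 59.9 to 88.6 CPM in P14 KO, which overlapped. None of 7 fibroblast and 6 endothelial markers was called. Of the fibroblast markers 4 had a negative and 3 a positive difference, with Dcn at -0.18, Col3a1 at 0.080 and a median of -0.025. Of the endothelial markers 5 had a negative and 1 a positive difference, with Kdr at -0.32, Pecam1 at 0.13 and a median of -0.18. These medians changed sign in 8 and 1 of 16 other settings.

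A smaller group of genes responded mainly in the adult. The clearest was Itgb1bp3, also called Nmrk2, a muscle kinase that starts NAD synthesis from nicotinamide riboside. Itgb1bp3 was at 32.0, 61.3 and 25.9 CPM in P14 CTRL and 37.5, 67.1 and 41.8 CPM in P14 KO. Adult levels were 17.1, 22.7 and 17.9 CPM in P90 CTRL and 134, 159 and 154 CPM in P90 KO. The P14 groups overlapped, whereas the P90 KO samples stood far above every other sample. Its log2 fold change was 0.30 at P14 (adjusted p = 0.531) and 2.97 at P90 (adjusted p = 0.00213), and the difference of -2.67 ± 0.40 (SE) was the lowest of all 228 genes (adjusted p = 0.0156, edgeR). It was called in 10 of 12 leave-one-out fits.

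Tob2, of the BTG/TOB antiproliferative proteins that act on mRNA deadenylation, was at 141, 119.8 and 97.8 CPM in P14 CTRL and 136, 121 and 124 CPM in P14 KO. At P90 it was at 83.9, 90.0 and 89.5 CPM in P90 CTRL and 158, 175 and 150.5 CPM in P90 KO. Only the adult groups were separate. For Tob2 the log2 fold change was 0.090 at P14 and 0.88 at P90, and the difference was -0.79 ± 0.17 (SE; adjusted p = 0.0411, edgeR), called in 3 of 12 leave-one-out fits. Klf2, a Krüppel-like transcription factor of vessels and quiescence, was at 32.6, 28.3 and 26.3 CPM in P14 CTRL and 25.96, 37.3 and 24.96 CPM in P14 KO. In the adult, Klf2 was at 15.6, 15.9 and 17.1 CPM in P90 CTRL and 28.3, 36.3 and 32.6 CPM in P90 KO, again separate at P90 alone, and its difference was -0.99 (0.017 at P14, 1.00 at P90). Its adjusted p of 0.0468 became 0.0726 after length correction (edgeR), and it was called in 2 of 12 leave-one-out fits. Nudc, a cochaperone of dynein, had a difference of -0.64 (-0.21 at P14, 0.42 at P90). Its adult effect was not called by itself (adjusted p = 0.18, edgeR). The difference was called in 2 of 12 leave-one-out fits, and its adjusted p of 0.0454 became 0.156 after length correction (edgeR).

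The other genes with the larger adult effect were lower in adult KO. Lgr4, a receptor for R-spondins that strengthens Wnt signalling, was at 54.2, 50.1 and 42.3 CPM in P14 CTRL and 56.8, 60.3 and 62.9 CPM in P14 KO. The adult values were 46.5, 48.2 and 53.7 CPM in P90 CTRL and 30.5, 34.9 and 36.2 CPM in P90 KO, where every KO sample lay below every CTRL sample. For Lgr4 the log2 fold change was 0.30 at P14 and -0.55 at P90, and the difference was 0.84 ± 0.16 (SE; adjusted p = 0.0252, edgeR), called in 5 of 12 leave-one-out fits. The DNA repair translocase gene Fancm gave 1.07 (0.36 at P14, -0.71 at P90), the paracaspase gene Malt1 1.32 (0.56 at P14, -0.76 at P90), the RNA-binding protein gene Samd4 0.72 (0.31 at P14, -0.41 at P90), the apoptosis inhibitor gene Birc6 0.64 (0.072 at P14, -0.57 at P90) and Leng8, whose role is less clear, 0.56 (0.21 at P14, -0.35 at P90). The other 2 genes of the group, Mau2 and Armcx4, were also lower in adult KO. Of the 6 genes with values given, Lgr4 alone was still called after length correction, and the corrected difference of Birc6 was 0.088. None of their adult effects was called by itself, the smallest adjusted p being 0.0953 for Birc6 (edgeR).

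Dusp5 combined a fall at P14 with higher values in adult KO. It encodes a nuclear phosphatase that switches off ERK. Dusp5 was at 17.4, 14.9 and 19.1 CPM in P14 CTRL and 9.42, 8.18 and 9.05 CPM in P14 KO. In the adult it was at 7.79, 4.57 and 5.93 CPM in P90 CTRL and 11.6, 10.5 and 9.28 CPM in P90 KO. The groups were separate at both stages and in opposite order. The log2 fold change was -0.95 at P14 (adjusted p = 0.00314) and 0.76 at P90 (adjusted p = 0.185), and the difference was -1.70 ± 0.26 (SE; adjusted p = 0.0156, edgeR). Hes1, a repressor in Notch signalling, behaved in the same way at 21.5, 19.0 and 22.8 CPM in P14 CTRL and 10.3, 13.8 and 13.2 CPM in P14 KO. At P90 Hes1 was at 17.1, 13.3 and 14.6 CPM in P90 CTRL and 18.7, 24.3 and 21.3 CPM in P90 KO, with a difference of -1.27 (-0.76 at P14, 0.51 at P90), and it was named after its values were seen.

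Dusp5 belongs to the immediate early and growth factor feedback list, which had the highest adult median of all lists. Its median log2 fold change was 0.15 at P14 and 0.75 at P90 over 38 tested members. The median difference was -0.40, little moved by length correction (-0.42), and Dusp5 and Klf2 were the 2 calls (5.26% against 0.958% of all genes tested). Without P14 CTRL replicate 1 the median difference was -0.19. Fos, the founding member of the group, was at 105, 64.4 and 155 CPM in P14 CTRL and 75.4, 199.5 and 98.5 CPM in P14 KO. Adult Fos was at 113, 204 and 195 CPM in P90 CTRL and 259, 538 and 372 CPM in P90 KO, where KO lay above CTRL, and its difference of -0.99 had an adjusted p of 0.358 (edgeR). Fos was picked after its values were seen.

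Promoters of the called genes were searched for the CArG box, 300 bases from 250 before to 50 after the transcription start given by RefSeq (build GRCm38.p6). The motif reads the same on both strands. A promoter was matched for 10145 of the genes tested (79.0%), for 95 of the 123 and for 83 of the 105, too few for a comparison of shares, which is therefore void as a check. As a description, the box was found in the promoters of 2 of 95, 3 of 83 and 162 of 10145 genes (2.11%, 3.61% and 1.6%), and in 7 of 40 matched genes of the actin cytoskeleton and SRF-MRTF list (17.5%). The 5 called genes were Dusp5 and Rap1gap2, with the lower neonatal effect, and Slc25a23, Lgr4 and Anxa5, with the higher; Rap1gap2 and Anxa5 fall outside the naming rule. The promoters of Dusp5 (chr19:53528895-53529194, plus strand), Lgr4 (chr2:109917397-109917696, plus strand) and Slc25a23 (chr17:57059793-57060092, minus strand) are shown 5′ to 3′ because these genes carry a stage difference in each of the directions seen, and capitals mark the CArG boxes.
Dusp5: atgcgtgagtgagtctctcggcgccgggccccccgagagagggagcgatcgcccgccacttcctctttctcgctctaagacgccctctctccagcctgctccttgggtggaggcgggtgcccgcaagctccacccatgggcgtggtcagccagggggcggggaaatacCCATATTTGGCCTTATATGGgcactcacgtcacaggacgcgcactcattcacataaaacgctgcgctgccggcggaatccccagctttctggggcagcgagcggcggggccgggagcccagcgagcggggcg
Lgr4: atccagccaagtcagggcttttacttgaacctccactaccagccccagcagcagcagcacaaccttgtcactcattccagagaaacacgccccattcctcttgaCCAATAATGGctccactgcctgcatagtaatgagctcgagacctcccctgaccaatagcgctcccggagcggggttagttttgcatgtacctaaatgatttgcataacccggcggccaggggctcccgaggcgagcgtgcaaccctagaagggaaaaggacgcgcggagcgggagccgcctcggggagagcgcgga
Slc25a23: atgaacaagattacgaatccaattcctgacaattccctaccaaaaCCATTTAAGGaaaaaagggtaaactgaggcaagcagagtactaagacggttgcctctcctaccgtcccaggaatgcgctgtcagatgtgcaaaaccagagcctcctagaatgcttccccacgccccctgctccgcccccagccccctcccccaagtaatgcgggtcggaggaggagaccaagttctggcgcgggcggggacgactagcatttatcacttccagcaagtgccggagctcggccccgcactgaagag
Dusp5 holds 2 boxes side by side, whose first bases lie 82 and 72 bases before the start. Lgr4 and Slc25a23 hold 1 each, 146 and 205 bases before. A match in these windows is a description of the letters and not a measured binding site.

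Slc25a23, a mitochondrial carrier of ATP-Mg and phosphate that calcium regulates, was among the 10 smallest p-values. It was at 51.5, 50.1 and 47.6 CPM in P14 CTRL and 123, 147 and 150.1 CPM in P14 KO. The P90 values were 57.9, 54.5 and 46.2 CPM in P90 CTRL and 71.7, 70.8 and 65.7 CPM in P90 KO. KO exceeded CTRL at both stages without overlap, by far more at P14. For Slc25a23 the log2 fold change was 1.49 at P14 and 0.39 at P90, and the difference was 1.10 ± 0.15 (SE; adjusted p = 0.0127, edgeR), called in 11 of 12 leave-one-out fits. Camk2b, a calcium/calmodulin kinase subunit, was at 18.3, 16.3 and 14.4 CPM in P14 CTRL and 32.3, 54.2 and 36.1 CPM in P14 KO. Adult Camk2b was at 17.1, 16.2 and 23.5 CPM in P90 CTRL and 16.4, 15.2 and 14.4 CPM in P90 KO, where KO and CTRL overlapped, and the difference was 1.63 (1.32 at P14, -0.30 at P90).

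The remaining lists had at most 2 calls each. Ubiquitin ligases and proteolysis had Asb14 called lower and Nedd4l, which tags ion channels for removal, called higher (0.68, with 0.54 at P14 and -0.13 at P90, adjusted p 0.192 after length correction) among 34. Those calls were 5.88% of the list against 1.78% of all genes tested. The list of cardiac transcription factors had 1 call among 31 (3.23% against 0.818% of all genes tested). This was again Rcan1, a regulator placed in that list too, which is not itself a transcription factor. No member was called of the cell cycle list (50 tested, with Ccnd2 at 0.46 and Ccnd3 at 0.42), the integrated stress and amino acid response (31, with Vldlr at 0.18 and Herpud1 at -0.31), the interferon response (29, with B2m at 0.43 and H2-D1 at 0.22) or RNA splicing regulators (23, with Qk at 0.28 and Rbm20 at 0.32). The unadjusted p was under 0.05 for 4 members of the cell cycle list, 5 of the stress list, 0 of the interferon list and 3 of the splicing list (edgeR). Over all genes tested the share at that threshold was 19%, and none of these lists exceeded it. Median differences of these lists were -0.066, 0.14, -0.068 and -0.060, and that of the cell cycle list ran from -0.27 to 0.61 with 1 library left out. The sign changed in 6, 0, 6 and 2 of 16 settings, in the same order. The heat shock list (-0.056) changed sign in 3 settings, the adrenergic list (0.034) in 2, and the lists of ubiquitin ligases (-0.059) and cardiac transcription factors (0.12) in 1 each.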

How the data were processed

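Polyadenylated RNA of sorted CMs was amplified with a SMART-Seq kit and sequenced. The authors aligned reads to mm10 with STAR 2.5.3a and deposited raw counts per gene from featureCounts (Subread 1.5.2), in 2 tables, 1 for each stage, with summed exon length (versions from the submitters' processing notes). Strand setting and treatment of multiply mapped reads are not given in the sources used here, so antisense, overlapping and near-identical genes are uncertain.

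From these counts, edgeR 4.0.16 (R 4.3.3) fitted 1 mean per group to all 12 samples, with TMM factors and filterByExpr. The quasi-likelihood test of the difference between stages was adjusted by Benjamini-Hochberg over 12841 genes. Total counts of 9740389 to 23103460 limit precision at low levels. The length correction removed a loess trend (span 0.5) of each library against log2 exon length. Alternatives used DESeq2 1.42.0, limma 3.58.1, other factors and filters, covariates and left-out samples. Sex was inferred from 4 Y-linked genes (at least 100 counts).

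Named were Srf; the 10 lowest and 10 highest differences and the 10 smallest p-values among called genes with a group mean of at least 5 CPM at each stage; up to 10 called genes with the larger adult response; called list members; and up to 2 most abundant members of lists without a call. Members and lists were chosen with earlier results of these data known. Some genes are not reported here. 25 gene names that had been turned into dates were left as they stand.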

Additional observations from a re-analysis of the deposited data

Results flagged for a closer look

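For the named genes below, the KO effect at P14 differed from that at P90 by the test of the difference itself (edgeR quasi-likelihood test, adjusted p under 0.05), and this is what set them aside. The value given is the neonatal minus adult log2 difference. Groups of 3 samples were not searched for single samples that stand apart.

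The neonatal effect was the lower for genes of oxidative phosphorylation: Ndufb4 (-1.01), Sdhb (-0.81), Ndufa9 (-0.72), Ndufa10 (-0.70), Ndufv1 (-0.67), Uqcrc2 (-0.66) and Atp5c1 (-0.66). It was the lower for genes of the tricarboxylic acid cycle and pyruvate entry: Brp44 (-1.14), Dld (-1.01), Sucla2 (-0.75), Fh1 (-0.72), Idh3b (-0.71), Got2 (-0.69), Suclg1 (-0.68), Mdh2 (-0.68) and Pdha1 (-0.62). The same held for fatty acid genes, Ces1d (-2.35), Dgat2 (-1.28), Etfb (-0.83), Echs1 (-0.83), Acadvl (-0.79), Acadm (-0.78), Hadhb (-0.77) and Etfa (-0.77), and for the mitochondrial ribosome, Mrpl30 (-0.92), Mrpl1 (-0.88), Mrpl42 (-0.85), Mrps15 (-0.78), Mrpl45 (-0.77), Mrpl9 (-0.69) and Mrps27 (-0.67). Further metabolic and mitochondrial genes were Itgb1bp3 (-2.67), Alas1 (-1.38), Rxrg (-1.36), Nmnat3 (-0.85), Timm23 (-0.80), Hspd1 (-0.77), Sirt5 (-0.76), Hibadh (-0.74), Vdac2 (-0.65) and Pcca (-0.57). Genes of other roles were Dusp5 (-1.70), Asb14 (-1.54), Ybx2 (-1.40), Csrp2 (-1.37), Klf2 (-0.99), Tob2 (-0.79) and Nudc (-0.64).

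The neonatal effect was the higher for genes of the sarcomere, the Z-disc and excitation: Hcn4 (1.55), Mybpc2 (1.502), Xirp2 (1.47), Cacna1g (1.24), Flnc (1.24), Myh10 (1.12), Sorbs2 (1.05), Ankrd23 (0.93) and Cacna1c (0.85). Among genes with such roles it was the lower for Clcn1 (-1.65), Tmod4 (-1.10) and Tnni3 (-0.85). It was the higher for secreted, surface and signalling genes: Gnao1 (2.36), Ptk2b (2.21), Mmp23 (2.13), Cd44 (1.85), Clu (1.83), Tgfb2 (1.72), Camk2b (1.63), Cspg4 (1.42), Col4a5 (0.99), Rcan1 (0.98), Itga5 (0.92) and Lgr4 (0.84). The rest were Klhl34 (2.20), Hspa1l (1.91), Atxn1l (1.60), Malt1 (1.32), Slc25a23 (1.10), Fancm (1.07), Samd4 (0.72), Esrrg (0.70), Nedd4l (0.68), Birc6 (0.64) and Leng8 (0.56).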

How the results depend on the processing

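The number of genes called in the difference between stages (228, of which 123 lower and 105 higher) was 912 (606 and 306) with DESeq2, which gave an adjusted p for 9717 genes, and 474 (307 and 167) with no filter on low counts. It was 148 (76 and 72) with gene length correction and 86 (37 and 49) with inferred sex as a covariate. With the 3 libraries holding Y-linked counts left out, an alternative chosen after seeing the data, it was 15 (5 and 10). It stayed within 1.5 times of 228 with DESeq2 size factors (279), upper-quartile factors (239), the filter within each stage (255) and voom (190). With 1 library left out it ranged from 4 to 377, the lower calls from 1 to 231 and the higher calls from 3 to 146. The neonatal count of 2088 was 1078 in a fit of the 6 neonatal samples and 1239 to 2301 with 1 library left out. The adult count of 3 was 180 with DESeq2, 46 in a fit of the 6 adult samples and 1 to 25 with 1 library left out. For the 110 named genes no difference reversed, and over the fits without 1 library, 718 of their results stayed on the same side of the threshold and 601 lost significance. Why the counts move with these choices was not tested.

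The labels share replicate numbers and do not say whether same-numbered samples were paired. Same-numbered CTRL and KO samples correlated by 0.047, 0.148 and 0.36 at P14 in their deviations from the group means. At P90 the correlations were 0.181, -0.000342 and 0.054, and not every sample correlated best with its own number. With 3 samples per group, these correlations cannot show whether the samples were paired. The replicate block raised the calls to 687 (405 lower and 282 higher) and the adult calls to 26. With gene length correction as well, the block gave 278.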
